A study of Homo sapiens with 18 samples.

Results

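The genes described here are 40 members of the interferon response and of MHC class I antigen presentation, read in all 6 groups of an array study of H295R cells. The members were given as a list of gene symbols, and every probe set annotated to a member was taken, also where it lists other symbols. The array table names a probe set for 38 of the 40 members. Those members lie on 50 of the 29153 probe sets, and 44 of the 50 carry distinct values, because TAP1, PSMB8 and PSMB9 are each represented by probe sets with identical values that were counted once. STAT2 and HLA-E were not named on any probe set and have no values here. A probe set of their own was found for 35 members. HLA-B, HLA-C and HLA-F were read only on probe sets shared between them (HLA-C/HLA-B and HLA-F/HLA-B), so their products cannot be told apart. USP18 has its own probe set and another shared with USP41P, and DDX58 is listed in current annotation as RIGI.

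H295R is an established cell line, derived from a steroid-secreting carcinoma of the human adrenal cortex. Both lines were selected with Zeocin: the control cells carry an empty pcDNA4 vector, and the GRα cells carry a pcDNA4 vector for GRα, the ligand-binding form of the glucocorticoid receptor, stably and without induction. At 70% confluence the cells went without serum for 24 h and then received ethanol vehicle, dexamethasone at 100 nM (a synthetic glucocorticoid) or RU486 at 100 nM (mifepristone, a steroid that competes for the same receptor), each for 6 h. Every group has 3 arrays except GRα cells with RU486, which has 2, since the array labelled replicate A did not pass quality control per its label and its column is empty. Each genotype is 1 stable line and the labels do not say whether it is a clone or a pool, so an effect of the receptor and any other difference between the lines cannot be told apart. No interferon, virus or other stimulus of the pathway is named in the labels, so the values are resting levels.

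Interferons are secreted proteins that bind paired cell surface receptors and switch on JAK kinases. The kinases activate STAT proteins, and type I interferon acts through a complex with STAT2 and IRF9 that binds the interferon-stimulated response element in the promoters of its target genes. Many of those genes make antiviral proteins: RNA sensors such as IFIH1 (MDA5) and DDX58 (RIG-I), the RNA-binding IFIT proteins, the MX GTPases, the OAS enzymes that activate RNase L, and membrane proteins such as BST2 (tetherin) and the IFITM family. Interferon also raises antigen presentation. Peptides cut by the immunoproteasome (PSMB8, PSMB9) are pumped into the endoplasmic reticulum by TAP1 and TAP2, and load onto an HLA heavy chain held with B2M. Glucocorticoids are known to dampen parts of this response in immune and epithelial cells.

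The promoters of 6 members are shown because these genes differed between the lines in opposite directions (B2M, TAP1 and IFI44L higher in GRα cells, BST2 and IFIH1 lower) or, for IFIT1, differed between dexamethasone and RU486 in GRα cells, while sharing the same letters. Each line holds the 170 bases before the transcription start, 5′ to 3′ in the direction of the gene, from RefSeq on GRCh38.p14. Capitals mark matches to the core of the interferon-stimulated response element, GAAA and GAAA with any 2 bases between, on either strand; overlapping matches run together. Of several annotated starts, the one with the most matches is shown. The stretches are B2M at chr15:44711347-44711516 (+ strand), TAP1 at chr6:32853705-32853874 (− strand), IFI44L at chr1:78620278-78620447 (+ strand), BST2 at chr19:17405631-17405800 (− strand), IFIH1 at chr2:162318685-162318854 (− strand) and IFIT1 at chr10:89392453-89392622 (+ strand).
B2M: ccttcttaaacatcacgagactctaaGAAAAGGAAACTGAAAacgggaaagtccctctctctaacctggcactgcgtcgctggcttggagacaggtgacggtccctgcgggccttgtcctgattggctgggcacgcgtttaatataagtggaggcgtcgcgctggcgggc
TAP1: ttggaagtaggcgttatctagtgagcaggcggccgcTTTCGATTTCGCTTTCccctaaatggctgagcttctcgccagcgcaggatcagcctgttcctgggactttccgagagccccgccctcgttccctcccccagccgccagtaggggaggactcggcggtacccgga
IFI44L: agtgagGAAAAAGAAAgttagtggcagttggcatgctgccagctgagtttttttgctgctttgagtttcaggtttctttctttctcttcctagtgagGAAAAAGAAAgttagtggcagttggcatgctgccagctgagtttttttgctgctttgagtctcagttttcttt
BST2: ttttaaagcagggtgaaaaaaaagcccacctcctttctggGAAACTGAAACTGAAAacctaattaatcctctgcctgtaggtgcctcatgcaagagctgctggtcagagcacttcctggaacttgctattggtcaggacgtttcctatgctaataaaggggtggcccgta
IFIH1: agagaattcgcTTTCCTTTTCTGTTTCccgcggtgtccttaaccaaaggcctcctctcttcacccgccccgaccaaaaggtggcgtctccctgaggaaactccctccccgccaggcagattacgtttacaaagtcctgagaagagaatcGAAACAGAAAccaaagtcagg
IFIT1: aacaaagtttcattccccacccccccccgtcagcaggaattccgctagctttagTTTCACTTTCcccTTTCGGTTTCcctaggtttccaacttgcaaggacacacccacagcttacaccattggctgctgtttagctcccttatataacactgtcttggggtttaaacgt

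B2M, TAP1 and BST2 hold a pair of overlapping matches, IFI44L and IFIT1 a separate pair, and IFIH1 3 matches. Over the promoter windows of RefSeq, which run from 250 bases before to 50 bases after a start, 25 of the 38 member promoters (65.8%) held a match, against 3.57% of all 35116 promoters. Counted by gene, 21 of the 30 members with a promoter entry had one, against 4.38% of all genes with an entry, and 10 members have no entry. A gamma-activated site, searched on both strands as TTC and GAA with any 3 bases between, was found in 11 of the 38 (28.9%) and in 7.66% of all promoters. A glucocorticoid response element, searched on both strands as GNACA and TGTNC with any 3 bases between, was found in 0 of the 38 and in 0.39% of all promoters; this says only that these letters are not in the windows. Of the members with their own probe set and a promoter, the response element was present in 5 of the 6 that were higher in GRα cells under vehicle, 7 of the 11 that were lower, and 9 of the 10 that were not called, with TAP2 counted in both the first and the last class because its probe sets differed. A match is a description of the sequence and not a measured binding site.

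Some facts of the arrays bear on the values. The deposited values are log2 signals after RMA, array medians ran from 6.28 to 6.35, and levels of different probe sets cannot be set against each other. A difference is given below as log2 of GRα over control cells or of ligand over vehicle, with its standard error (SE) and an adjusted p from limma with the Benjamini-Hochberg correction over all 29153 probe sets; "called" means an adjusted p under 0.05. NR3C1, the gene of the vector's insert, read 7.36 in control and 7.94 in GRα cells under vehicle, and of 5 genes read as a check of the ligand (NR3C1 among them) 4 rose with dexamethasone in GRα cells and 3 in control cells. The array GRα vehicle replicate B stood apart: its estimated array weight in limma was 0.21, against 0.73 to 2.10 for the others. Member calls in vehicle that ended without it are given with their value without it. The labels call the arrays biological replicates without naming separate cultures, so a p-value here reflects only how far such arrays scatter, and part of that scatter may be technical.

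The first question is how the resting interferon programme differs between cells with the added receptor and control cells. It did not move as a block: class I heavy chains, B2M, TAP1, IFI44 and IFI44L were higher in GRα cells, while IFIH1, BST2, IFITM1, IRF3, IFI27, OAS1, MX1 and IFIT5 were lower, and most of the IFIT, IFITM, OAS and ISG15 genes were not called. In vehicle, 13 of the 44 distinct probe sets were higher and 13 lower (59.1%), beside 11.9% higher, 14.3% lower and 26.2% in either direction over all probe sets. Of the higher ones, 7 were probe sets of class I chains. Those that share HLA symbols may read the same transcripts, so these are counts of probe sets and not of separate genes. The median difference of the 44 was 0.068, against 0.014 over all. Under dexamethasone 10 were higher and 12 lower, beside 12.8%, 13.6% and 26.4% of all probe sets. Under RU486 9 were higher and 8 lower (38.6%), beside 10.5%, 12.0% and 22.5%. The arrays of the lines did not overlap for 28 of the 44 in vehicle (35.6% of all probe sets), 28 under dexamethasone (40.3%) and 29 under RU486 (50.2%). Without GRα vehicle replicate B the vehicle comparison gave 12 higher and 10 lower.

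The 3 comparisons use separate arrays, though 1 fit supplies their error. In all 3, 9 of the 44 probe sets were higher in GRα cells (7.72% of all probe sets were) and 8 were lower (9.02% of all). The higher ones again include several HLA probe sets that may read the same transcripts. Another 9 of the 44 were called in 1 or 2 treatments, 18 in none, and 0 in opposite directions. In 19 of the 44 the lines did not overlap over all 17 arrays, beside 18.0% of all probe sets. In bulk RNA, fewer cells with a transcript and less of it per cell cannot be told apart.

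**Figure D1:**
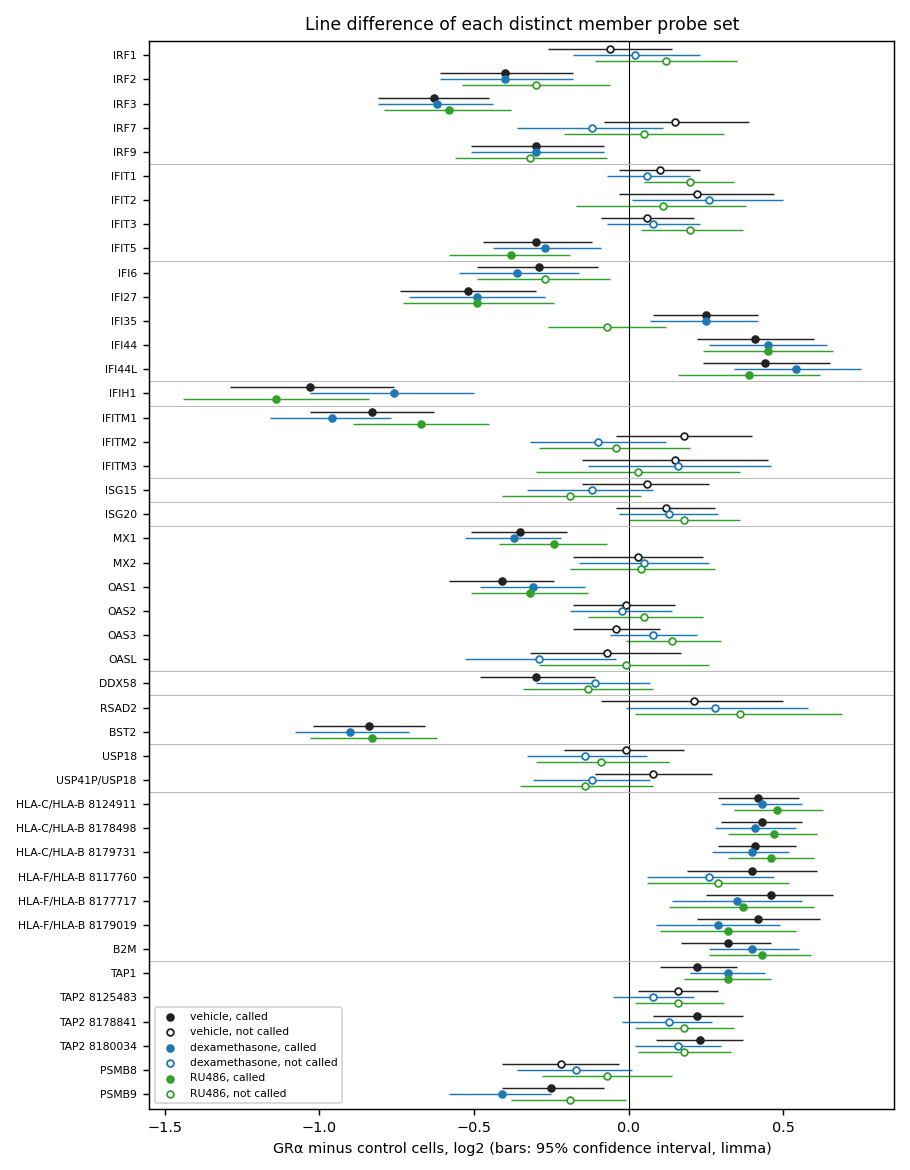
Difference between GRα and control cells for each of the 44 distinct probe sets, on the x axis as log2 with its 95% confidence interval from limma, in vehicle (black), dexamethasone (blue) and RU486 (green); filled points are called and grey lines separate the roles. The HLA, B2M and TAP1 points lie right of 0 and the IRF3, IFIH1, IFITM1 and BST2 points lie left of it in every treatment.

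Among the transcription factors, IRF3, which turns a sensor's signal into interferon-β transcription, was lower in GRα cells in every treatment. Its vehicle arrays read 8.04, 8.25 and 8.09 in control cells and 7.54, 7.67 and 7.28 in GRα cells, a difference of −0.63 (SE 0.09, limma adjusted p = 3.35e-05). Over all treatments the 9 control arrays ran from 8.02 to 8.25 and the 8 GRα arrays from 7.28 to 7.67, with no overlap. The difference was −0.62 under dexamethasone and −0.58 under RU486, both called. IRF2, a repressor of interferon-induced promoters, read 7.60, 7.53 and 7.59 in control and 7.22, 6.97 and 7.33 in GRα vehicle arrays (−0.40, SE 0.10, limma adjusted p = 0.00756; −0.29 without GRα vehicle replicate B). Its difference was −0.40 under dexamethasone, called, and −0.30 under RU486, not called (limma adjusted p = 0.0684), and the lines did not overlap over all 17 arrays.

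IRF9, the DNA-binding partner of STAT2, was lower by a smaller step. In vehicle it read 6.74, 6.62 and 6.74 in control cells and 6.40, 6.46 and 6.36 in GRα cells (−0.30, SE 0.10, limma adjusted p = 0.0417). This call ended without GRα vehicle replicate B (−0.32, limma adjusted p = 0.0516), and it was kept in 9 of the 17 fits that left out 1 array. Under dexamethasone the value was −0.30, called, and under RU486 −0.32, not called (limma adjusted p = 0.0586). IRF1, the factor of the interferon-γ response, and IRF7, the amplifier of type I interferon, were not called in any treatment, with differences of −0.06 and 0.15 in vehicle and 95% intervals from −0.26 to 0.14 and from −0.08 to 0.39.

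Of the RNA sensors, IFIH1, which recognises long double-stranded RNA, had the largest difference among the members in vehicle. Its vehicle arrays read 6.92, 6.58 and 6.99 in control cells and 5.88, 5.74 and 5.79 in GRα cells. The difference was −1.03 (SE 0.13, limma adjusted p = 1.1e-05), a 2.04-fold lower signal, and it was −0.76 under dexamethasone and −1.14 under RU486, all called. No GRα array reached the control arrays: the highest GRα value was 6.05 and the lowest control value 6.58. DDX58, the sensor of short RNA with a free triphosphate end, was lower in vehicle alone by the test (6.98, 6.82 and 6.93 against 6.53, 6.54 and 6.76; −0.30, SE 0.09, limma adjusted p = 0.0196). Without GRα vehicle replicate B it was not called (−0.26, limma adjusted p = 0.0618), and its values of −0.11 under dexamethasone and −0.13 under RU486 were not called either.

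BST2, which holds budding virions to the cell surface, was lower in GRα cells on all arrays. It read 9.38, 9.18 and 9.14 in control and 8.26, 8.56 and 8.37 in GRα vehicle arrays, a difference of −0.84 (SE 0.09, limma adjusted p = 1.32e-06). The values under dexamethasone and RU486 were −0.90 and −0.83, both called. The control arrays lay between 8.99 and 9.38 and the GRα arrays between 8.19 and 8.56, so the lines stood well apart. RSAD2 (viperin), an enzyme that makes a chain-terminating nucleotide, was not called in any treatment. Its differences of 0.21, 0.28 and 0.36 in vehicle, dexamethasone and RU486 came with wide intervals (−0.09 to 0.50 in vehicle). Its vehicle arrays read 5.49, 5.39 and 5.65 in control and 5.89, 5.29 and 5.98 in GRα cells, where 5.29 is replicate B. Under dexamethasone (5.52, 5.44 and 5.33 against 5.75, 5.73 and 5.66) and RU486 (5.44, 5.23 and 5.49 against 5.87 and 5.62) the lines did not overlap.

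The IFITM genes, neighbours on chromosome 11 whose products block fusion of viral envelopes, did not go together. IFITM1 read 6.21, 6.01 and 6.00 in control and 5.15, 5.38 and 5.20 in GRα vehicle arrays (−0.83, SE 0.09, limma adjusted p = 3.7e-06), and its difference was −0.96 under dexamethasone and −0.67 under RU486, both called. Its highest GRα value over all treatments was 5.43 and its lowest control value 5.98. IFITM2 and IFITM3 were not called, with vehicle differences of 0.18 and 0.15. They averaged 5.33 and 4.91 in control vehicle arrays, below the array medians of 6.28 to 6.35, as did IFITM1 (6.07). Detection above background was not analysed for them. The 3 genes are close in sequence, so their probe sets may share signal.

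In the MX and OAS families too, a single gene of each was called. MX1, a GTPase that traps viral nucleocapsids, read 6.89, 6.88 and 6.95 in control and 6.64, 6.39 and 6.64 in GRα vehicle arrays (−0.35, SE 0.07, limma adjusted p = 0.00171; −0.27 without GRα vehicle replicate B). It was −0.37 under dexamethasone and −0.24 under RU486; the last call (limma adjusted p = 0.0455) was kept in 4 of the 17 fits without 1 array. OAS1, which makes the second messenger of RNase L, read 7.81, 7.90 and 7.93 against 7.38, 7.59 and 7.45 (−0.41, SE 0.08, limma adjusted p = 0.00106), and its lines did not overlap in any treatment. MX2, OAS2, OAS3 and OASL were not called in any treatment, and their vehicle differences ran from −0.07 to 0.03. In control vehicle arrays MX2, OAS2 and OASL averaged 4.71, 5.19 and 5.53, below the array medians of 6.28 to 6.35, and OAS3 averaged 7.23. Detection above background was not analysed, so a difference in the dim ones may be missed. Whether OAS1 differs from OAS2 and OAS3 in its response was not tested.

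The IFIT genes lie together on chromosome 10. IFIT5 was lower in GRα cells, at 7.46, 7.33 and 7.47 in control and 6.95, 7.21 and 7.22 in GRα vehicle arrays (−0.30, SE 0.08, limma adjusted p = 0.013). Its values were −0.27 under dexamethasone and −0.38 under RU486, both called, and the lines did not overlap over the 17 arrays. IFIT1, IFIT2 and IFIT3 were not called between the lines in any treatment, with vehicle differences of 0.10, 0.22 and 0.06.

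IFI44 and IFI44L, neighbouring genes on chromosome 1 that negatively affect interferon signalling in infected cells, were higher in GRα cells in every treatment. In vehicle IFI44 read 8.39, 8.16 and 8.28 in control and 8.62, 8.64 and 8.80 in GRα cells (0.41, SE 0.09, limma adjusted p = 0.00231). IFI44L read 7.84, 7.58 and 7.69 against 8.19, 8.16 and 8.09 (0.44, SE 0.10, limma adjusted p = 0.00257). For both, every GRα array lay above every control array over the 3 treatments. The differences were 0.45 and 0.54 under dexamethasone and 0.45 and 0.39 under RU486.

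The other interferon-induced proteins divided. IFI27, a mitochondrial protein and a widely used marker of interferon exposure, was lower, at 7.16, 7.07 and 6.92 in control and 6.63, 6.25 and 6.70 in GRα vehicle arrays (−0.52, SE 0.10, limma adjusted p = 0.00103); without GRα vehicle replicate B its value was −0.38. IFI6, which guards the endoplasmic reticulum against viral remodelling, read 8.54, 8.47 and 8.44 against 8.07, 8.43 and 8.08 (−0.29, SE 0.09, limma adjusted p = 0.027). The value of 8.43 is the array that stood apart, and without it the IFI6 difference was −0.41. IFI6 was called under dexamethasone (−0.36) and not under RU486 (−0.27, limma adjusted p = 0.0677).

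IFI35, a leucine-zipper partner of NMI, was higher in vehicle (6.09, 6.3 and 6.35 against 6.4, 6.59 and 6.5; 0.25, SE 0.08, limma adjusted p = 0.032) and under dexamethasone (0.25). Its vehicle call ended without GRα vehicle replicate B (0.20, limma adjusted p = 0.103). Under RU486 its value was −0.07 and not called, and the line by RU486 interaction of −0.32 was not called either. ISG15, the ubiquitin-like modifier itself, USP18, which removes it, and the exonuclease ISG20 were not called in any treatment. Their vehicle differences were 0.06, −0.01 and 0.12, and the probe set shared by USP41P and USP18 gave 0.08.

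**Figure D2:**
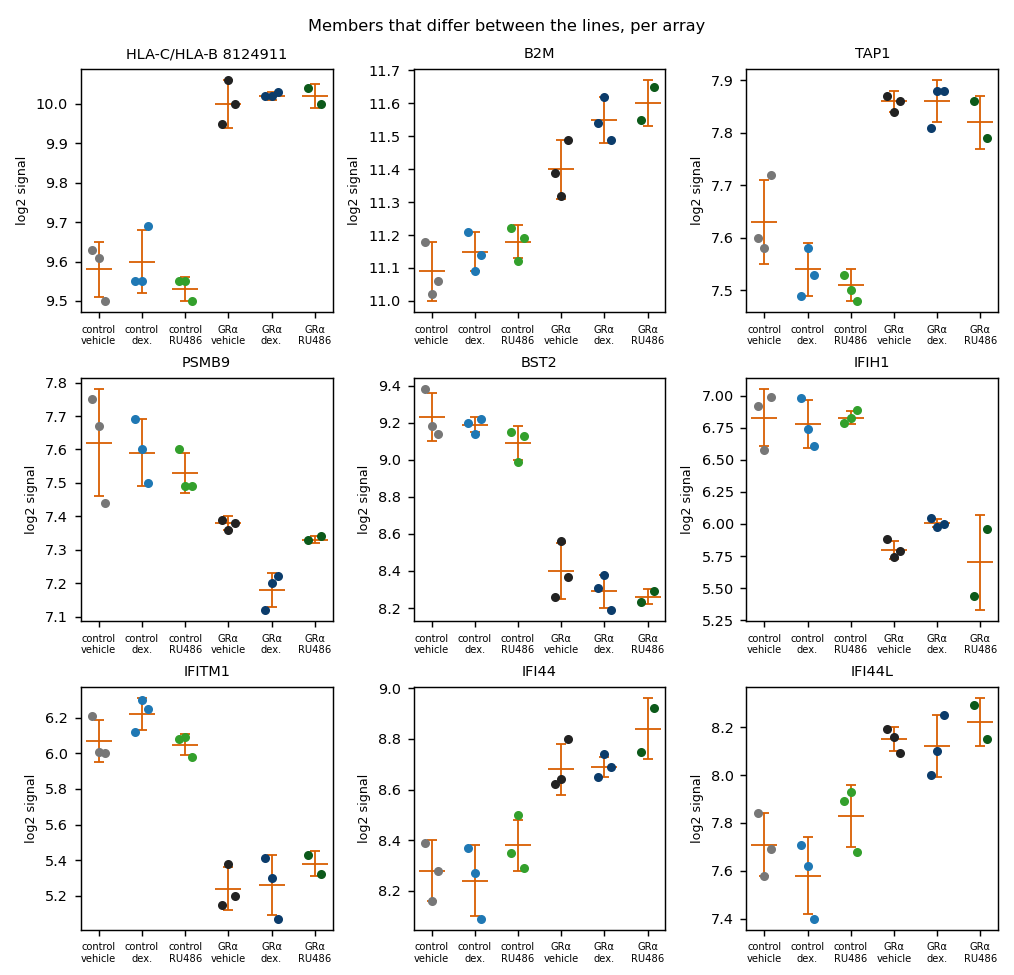
Log2 signal of 9 members on each array (points), by group, with the group mean and SD as orange bars; 3 arrays a group except 2 for GRα cells with RU486. The GRα points of the HLA-C/HLA-B probe set, B2M, TAP1, IFI44 and IFI44L lie above all control points, and those of PSMB9, BST2, IFIH1 and IFITM1 lie below them.

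All 7 probe sets of the MHC class I chains were higher in GRα cells under vehicle. The 3 probe sets shared by HLA-C and HLA-B, the classical heavy chains that show peptides to CD8+ T cells, were higher in every treatment. The first of them (probe set 8124911) read from 9.5 to 9.63 in control and from 9.95 to 10.06 in GRα vehicle arrays, a difference of 0.42 (SE 0.06, limma adjusted p = 5.17e-05) or 1.34-fold. The second (8178498) read 9.72, 9.69 and 9.58 against 10.03, 10.17 and 10.07, and the third (8179731) 10.04, 10.05 and 9.93 against 10.37, 10.46 and 10.43. Over vehicle, dexamethasone and RU486 the differences of the 3 probe sets ran from 0.40 to 0.48. Probe sets annotated to the same pair of genes may read the same transcripts, so they are not separate pieces of evidence.

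The HLA-F/HLA-B probe sets gave a similar size. HLA-F is a nonclassical heavy chain. Probe set 8177717 read 7.07, 7.25 and 7.07 in control and 7.44, 7.87 and 7.45 in GRα vehicle arrays (0.46, SE 0.10, limma adjusted p = 0.00221), and 8179019 read 7.06, 7.23 and 7.06 against 7.38, 7.79 and 7.44 (0.42, SE 0.09, limma adjusted p = 0.00283). Both were also called under dexamethasone (0.35 and 0.29) and RU486 (0.37 and 0.32). The highest GRα reading of each was replicate B, and without it the vehicle differences were 0.31 and 0.29, both still called. Probe set 8117760 read 6.78, 6.91 and 6.75 against 7.03, 7.46 and 7.14 and was called in vehicle (0.40; 0.27 without that array) but not under dexamethasone (0.26, limma adjusted p = 0.0576) or RU486 (0.29, limma adjusted p = 0.0707), although its lines did not overlap.

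B2M, the light chain of MHC class I molecules, was higher as well. Its vehicle arrays read 11.18, 11.02 and 11.06 in control and 11.39, 11.32 and 11.49 in GRα cells (0.32, SE 0.07, limma adjusted p = 0.00232). The difference was 0.40 under dexamethasone and 0.43 under RU486. The highest control array of any treatment was 11.22 and the lowest GRα array 11.32.

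Of the genes that supply the peptides, the transporter and the protease parted. TAP1 read 7.60, 7.58 and 7.72 in control and 7.87, 7.84 and 7.86 in GRα vehicle arrays (0.22, SE 0.06, limma adjusted p = 0.00792), and was higher by 0.32 under both ligands. PSMB9, the catalytic subunit encoded next to TAP1 and transcribed from the other side of the same short promoter, was lower: 7.75, 7.67 and 7.44 against 7.39, 7.36 and 7.38 in vehicle (−0.25, SE 0.08, limma adjusted p = 0.0266). Its vehicle call ended without GRα vehicle replicate B (limma adjusted p = 0.0549). Under dexamethasone PSMB9 was −0.41 (limma adjusted p = 0.000627) and under RU486 −0.19, not called. Over all treatments the lines did not overlap for either gene, TAP1 with GRα above and PSMB9 with GRα below.

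TAP2 was read on 3 probe sets that did not give the same call. In vehicle 8178841 read 7.23, 7.28 and 7.28 in control and 7.49, 7.62 and 7.36 in GRα cells (0.22, limma adjusted p = 0.0214; 0.0745 without GRα vehicle replicate B), and 8180034 read 7.40, 7.46 and 7.47 against 7.70, 7.75 and 7.56 (0.23, limma adjusted p = 0.0137; 0.0416 without that array). The remaining one, 8125483, had 0.16 and was not called (limma adjusted p = 0.0652). All 3 were above 0 under dexamethasone and RU486, from 0.08 to 0.18, with none called. PSMB8, the other immunoproteasome subunit, was not called in any treatment (−0.22, −0.17 and −0.07 in vehicle, dexamethasone and RU486).

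The HLA, TAP and PSMB members lie on the short arm of chromosome 6. Of 93 genes with a probe set that RefSeq places between HLA-F and PSMB9, 5 were higher and 7 lower in GRα cells under vehicle, with a median of 0.05. The largest of those differences were LTA (0.40), C6orf136 (−0.39) and NRM (−0.35), all called. Over all probe sets 11.9% were higher and 14.3% lower in vehicle, so the called share of these genes was the smaller in both directions. All probe sets are an unlike set, which includes those with no symbol. Whether this share is particular to the region was not tested.

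Upstream of the members, several receptor genes were lower, where 11.9% of all probe sets were higher and 14.3% lower in vehicle. Of 9 genes for interferon receptors and their kinases, 5 were lower and 0 higher in vehicle: IFNAR2 (−0.75, SE 0.08), the signalling chain of the type I receptor, IL10RB (−0.75, SE 0.07), a chain of the interferon-λ receptor, IFNAR1 (−0.69, SE 0.07), the other type I chain, JAK2 (−0.45, SE 0.12), and IFNGR2 (−0.31, SE 0.06), which was not called under RU486 (−0.17, limma adjusted p = 0.0614). The JAK2 call ended without control vehicle replicate A or replicate C (limma adjusted p = 0.0513 and 0.0528). IFNAR2, IL10RB, IFNAR1 and IFNGR2 follow each other on chromosome 21. There 84 of 196 measured protein-coding genes (42.9%), read on 1 probe set a gene, were lower in vehicle. Over all probe sets, an unlike set that includes those with no symbol, 14.3% were lower. The part of this chromosome's lower share in the receptor and MX1 values was not tested. IFNGR1, IFNLR1, JAK1 and TYK2 were not called. Of 16 interferon genes 1 was higher, IFNA5 (0.27, limma adjusted p = 0.0475), a call kept in 6 of the 25 other settings and arrays left out. IFNB1 read 3.84 in control and 4.04 in GRα vehicle arrays, below the array medians of 6.28 to 6.35, and was not called. Of the 16 differences 15 were above 0 and 1 below, with a median of 0.13. Detection above background was not analysed, so these values do not show that an interferon gene is expressed.

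Of 48 other interferon-stimulated genes outside the member list, 19 were lower and 7 higher in vehicle, with a median of −0.15. Over all probe sets 14.3% were lower and 11.9% higher. The largest differences were those of XAF1 (−2.18, SE 0.09, limma adjusted p = 2.41e-11), a promoter of apoptosis, TRIM22 (−1.11, SE 0.07), an antiviral ubiquitin ligase, NMI (−0.87, SE 0.11), which binds IFI35, and GBP2 (0.86, SE 0.12), a guanylate-binding GTPase. Under dexamethasone 5 were higher and 16 lower, beside 12.8% and 13.6% of all probe sets. Under RU486 3 were higher and 18 lower, beside 10.5% and 12.0%. Lower calls outnumbered higher ones in each treatment.

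Among 17 sensors and adaptors, 2 were higher and 5 lower in vehicle, beside 11.9% of all probe sets higher and 14.3% lower. MAVS, the mitochondrial adaptor to which IFIH1 and DDX58 signal, was higher (0.50), while the kinases IKBKE (−0.60) and TBK1 (−0.34), which phosphorylate IRF3, and TRIM25 (−0.36), which activates DDX58, were lower. Of 4 genes listed for the attachment of ISG15, the ligase HERC5 was higher (0.65), and UBA7 (−0.40) and HERC6 (−0.42), a relative of HERC5, were lower. Of 8 negative regulators, PIAS1 (0.82) and SOCS1 (0.38) were higher and the phosphatase PTPN6 lower (−0.51).

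Of 12 measured class I loading and processing factors 3 were lower, 1 was higher and the rest were not called in vehicle. Over all probe sets 14.3% were lower and 11.9% higher, so these counts are not far from that share. PSME1 (−0.75) and PSME2 (−0.51), the proteasome activator subunits, and TAPBP (−0.51), the tapasin that bridges TAP to the heavy chain, were lower, and the trimming peptidase ERAP2 was higher (0.27). Under dexamethasone 4 were higher and 4 lower, beside 12.8% and 13.6% of all probe sets. Under RU486 the counts were 2 and 2, beside 10.5% and 12.0%. Of 9 regulators of MHC genes, RFX5 was higher (0.81) and RFXAP lower (−0.90), which are partners in the same DNA-binding complex, while NLRC5, the class I transactivator, was not called (−0.12). Of 6 MHC class II genes 0 were called in vehicle.

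**Figure D3:**
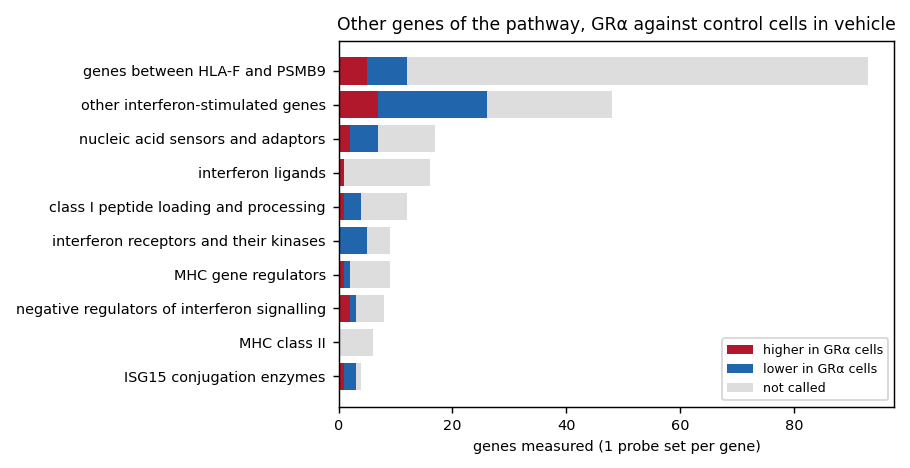
Number of measured genes in 10 lists of the pathway and its neighbourhood (x axis, 1 probe set a gene), split into those called higher (red), called lower (blue) and not called (grey) in GRα against control cells under vehicle. Receptors and kinases show 5 lower and 0 higher, other interferon-stimulated genes 19 lower and 7 higher, and the 93 genes between HLA-F and PSMB9 are mostly grey.

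Some cell type markers also differed between the lines, where 11.9% of all probe sets were higher and 14.3% lower in vehicle. Of 10 adrenocortical markers 5 were lower and 1 higher in GRα vehicle arrays, led by HSD3B2 (−1.59), SULT2A1 (−1.09) and STAR (−0.91). STAR read 10.32 in control and 9.42 in GRα cells, and CYP11A1 10.15 and 10.25, not called; detection above background was not analysed here. The summed linear signal of the list was 4740 to 5370 over the control groups and 3970 to 4410 over the GRα groups. Of 11 leukocyte markers 2 were higher and 0 lower (LCP1 0.64, ITGAM 0.33), with a summed signal of 707 to 770 in control and 853 to 947 in GRα arrays; the pan-leukocyte gene PTPRC read 3.72 and 3.91 and was not called. Of 9 fibroblast markers 3 were higher and 0 lower (1060 to 1160 against 1290 to 1450), and of 8 endothelial markers 1 was higher and 0 lower (343 to 411 against 368 to 414). The endothelial sums overlap, and 0 endothelial markers were called under dexamethasone or RU486. A summed linear signal follows its brightest genes most. The part of these markers in the differences between the lines was not tested.

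The second question is whether dexamethasone changes these genes within 6 h. By the test within each line it did not call any: 0 of the 44 in GRα cells (1.46% of all probe sets were called) and 0 in control cells (0.0926% of all). At an unadjusted p under 0.05, 8 of the 44 (18.2%) passed in GRα cells, beside 15.0% of all probe sets, and 7 (15.9%) in control cells, beside 4.33%. The arrays of the ligand and vehicle did not overlap for 7 in GRα cells (15.9%, beside 15.4% of all) and for 10 in control cells (22.7%, beside 12.0% of all). The lowest limma adjusted p among the members was 0.0586 in GRα cells, that of IFIT1, and 0.345 in control cells.

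No IFIT gene was called in either line, and IFIT1, IFIT2 and IFIT3 had the 3 lowest differences of the 44 in control cells; in GRα cells the USP41P/USP18 probe set (−0.34) was lower than any of them. IFIT1 read 7.88, 7.88 and 7.78 in vehicle and 7.61, 7.63 and 7.54 with dexamethasone in GRα cells (−0.25, SE 0.06, limma adjusted p = 0.0586; 0.132 without GRα vehicle replicate B), and 7.77, 7.70 and 7.77 against 7.61, 7.46 and 7.52 in control cells (−0.22, SE 0.06, limma adjusted p = 0.531). IFIT3 read 6.85, 6.82 and 6.89 against 6.67, 6.54 and 6.59 in GRα cells (−0.25, SE 0.07, limma adjusted p = 0.0956), and 6.87, 6.77 and 6.74 against 6.64, 6.47 and 6.45 in control cells (−0.28, SE 0.07, limma adjusted p = 0.345). For both genes every dexamethasone array lay below every vehicle array of its line. IFIT2 read 6.51, 6.72 and 6.85 against 6.49, 6.52 and 6.13 in GRα cells, which overlap, and 6.61, 6.34 and 6.47 against 6.19, 6.21 and 5.97 in control cells, which do not (−0.31 and −0.35, not called). IFIT5 differed by −0.03 and −0.06.

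A comparison added after these values were seen took the mean dexamethasone effect of both lines, each against its own vehicle arrays. It called IFIT1 (−0.23, SE 0.04, limma adjusted p = 0.0107) and IFIT3 (−0.26, SE 0.05, limma adjusted p = 0.0117) as lower and no other of the 44, beside 1.31% of all probe sets in either direction and 0.494% lower. Both fell in each of the 17 fits without 1 array. IFIT2 had −0.33 (SE 0.08, limma adjusted p = 0.0661) and was not called. Since the comparison was chosen for these genes, its p-values are a description and not separate support.

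**Figure D4:**
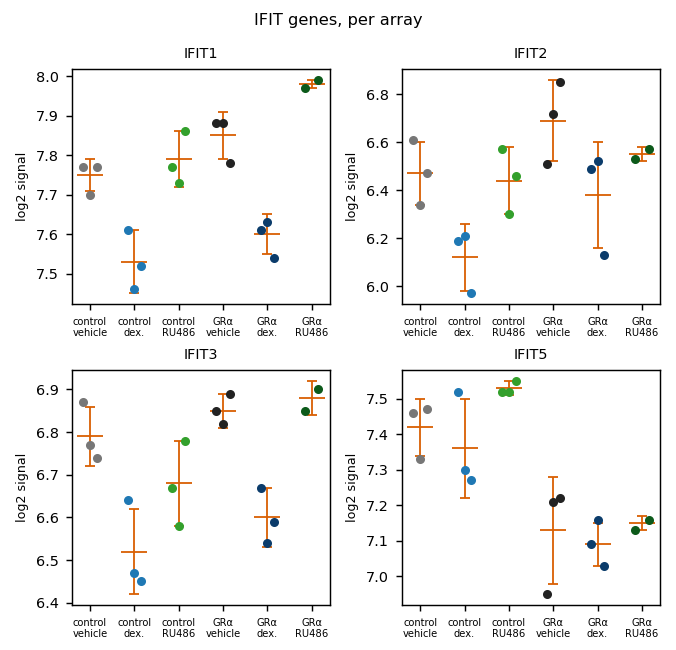
Log2 signal of IFIT1, IFIT2, IFIT3 and IFIT5 on each array (points) by group, with the group mean and SD as orange bars. The dexamethasone points of IFIT1 and IFIT3 lie below the vehicle points of the same line, those of IFIT2 do so in control cells, and IFIT5 separates by line.

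Other members with an unadjusted p under 0.05 were MX1 in both lines (−0.19 in GRα and −0.17 in control cells), and PSMB9 (−0.20), TAP2 on 2 probe sets (−0.16 each) and the USP41P/USP18 probe set (−0.34, limma adjusted p = 0.0742) in GRα cells. In control cells they were PSMB8 (−0.21), IFITM2 (0.27) and ISG15 (0.21). None of these was called. The class I chains stayed between −0.03 and 0.14 in GRα cells and between −0.01 and 0.13 in control cells. The 95% intervals of all 44 in GRα cells, and of 43 in control cells, lay within a change of 1.5-fold either way.

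The dexamethasone effect was not shown to differ between the lines for any member. The line by dexamethasone interaction called 0 of the 44, beside 0.0412% of all probe sets, and 0 passed an unadjusted p of 0.05, beside 7.32%. For IFIT1 the interaction was −0.03, with a 95% interval from −0.22 to 0.15, and for IFIT3 it was 0.02, from −0.19 to 0.23. The other genes of the pathway gave 0 called in either line in the lists of ligands, receptors, sensors, regulators, ISG15 enzymes, other interferon-stimulated genes, loading factors, MHC regulators and class II. In the mean of both lines PNPT1 (−0.19), an RNA exonuclease of mitochondria, was the 1 gene of the 48 other interferon-stimulated genes that was called.

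RU486, at the same dose and time, called 0 of the 44 against vehicle in GRα cells and 0 in control cells, where 0.0% of all probe sets were called in both. At an unadjusted p under 0.05 there were 2 in GRα cells (B2M 0.20, IFI35 −0.28), beside 9.21% of all probe sets, and 2 in control cells (IRF1 −0.22, TAP1 −0.13), beside 3.77%, and limma with its correction called none of them. IFIT1 changed by 0.13 in GRα cells and 0.04 in control cells, and IFIT3 by 0.03 and −0.12, none called. The line by RU486 interaction called 0, with 0.0% of all probe sets called and 1 member at an unadjusted p under 0.05 (IFI35), beside 4.35% of all.

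Dexamethasone and RU486 share the steroid skeleton, and RU486 carries a bulky aryl group that dexamethasone lacks. Compared directly at 100 nM and 6 h over the 44 probe sets of each line, they differed in 1: IFIT1 in GRα cells, at 7.61, 7.63 and 7.54 with dexamethasone and 7.97 and 7.99 with RU486 (−0.39, SE 0.07, limma adjusted p = 0.0148), beside 0.497% of all probe sets called and 0.0583% called lower. All dexamethasone arrays lay below both RU486 arrays. The call was lost when only the 2 groups compared were fitted (limma adjusted p = 0.232) and without GRα dexamethasone replicate C, GRα RU486 replicate B or GRα RU486 replicate C (limma adjusted p up to 0.191).

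In control cells the same difference of IFIT1 was −0.25 (SE 0.06, 95% interval from −0.38 to −0.12, limma adjusted p = 0.205), with no overlap of the arrays and no call, and 0 of the 44 were called beside 0.189% of all probe sets. IFIT3 differed by −0.28 in GRα cells (95% interval from −0.45 to −0.11) and −0.16 in control cells (−0.31 to −0.01), not called. The 95% intervals of 43 of the 44 in GRα cells, IFIT1 among them, and of 44 in control cells lay within 1.5-fold. The highest bound in GRα cells was 0.61 on the log2 scale. At an unadjusted p under 0.05, 5 of the 44 passed in GRα cells (8.08% of all probe sets) and 4 in control cells (5.1%), and the arrays did not overlap for 12 (25.3% of all) and 8 (13.8%). A p that misses the threshold does not show that the 2 steroids act alike on a gene. The comparisons of each ligand with vehicle and with each other share arrays, so their values stand side by side and are not separate evidence.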

How the data were processed

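RNA was measured on Affymetrix arrays in 18 samples of H295R cells, and 17 hold values. The authors deposited log2 values of 29153 probe sets; the submitters' processing notes name RMA, which corrects background, quantile-normalizes and summarises probes, and limma. Quantile normalization removes any shift shared by most RNAs. The genome build, like any version, is not given in the sources used here. The number of arrays limits the precision.

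Groups came from the labels. Probe set names are those of the platform annotation, with symbols renewed by Entrez number from RefSeq (19429 of the 19460 with 1 symbol matched). Another 1754 probe sets list several symbols and 7939 list none. Identical probe sets of a member were counted once (557 in the whole table repeat another). Any other gene with several probe sets is represented by the brightest on average. The shares over all probe sets given beside such lists come from an unlike set, which includes probe sets with no symbol.

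A single limma fit (version 3.58.1, R 4.3.3) took all 17 arrays and 6 group means, with 11 residual and 4.74 prior degrees of freedom, and no filter. Tests were two-sided, with Benjamini-Hochberg adjustment over 29153 probe sets and a threshold of 0.05. The code was tested on simulated data. Members, gene lists and tests were chosen with earlier results of these data known. Every member is accounted for; array values are given for members called without overlap, and up to 4 called genes with the largest changes are named for each other list (3 for the genes between HLA-F and PSMB9). IFNGR2 and the uncalled genes of other lists were named after their values were seen. Members given only at an unadjusted p were named after their values were seen.

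Replicate letters did not pair the arrays: the deviations of same-letter arrays correlated above 0.1 in 3 of 40 pairs, and those of other arrays in 9 of 80. Alternatives were another quantile step, median centring, leaving out the dimmest 25% of probe sets, a trended robust eBayes, array weights, 1 probe set a gene, only the groups compared, the letter as a block, and each array left out. Promoter sequences are RefSeq's on GRCh38.p14. No batch is named in the labels.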

Additional observations from a re-analysis of the deposited data

How the results depend on the processing

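The results were recomputed under 26 other settings, 17 of which left out 1 array. No named member result that was called, as reported or in the setting, changed its sign under any of them, while uncalled values near 0 could: with 1 array left out the line by dexamethasone interaction ran from −0.07 to 0.01 for IFIT1, from −0.06 to 0.16 for IFIT2 and from −0.02 to 0.08 for IFIT3. Of 101 named member results, 68 were called, and 46 of these were called in every setting. Members called between the lines under RU486 numbered 17, and 10 to 23 with 1 array left out; the 10 came without GRα RU486 replicate B, which leaves a single array assumed to vary like the other groups. For dexamethasone against vehicle in GRα cells the count of 0 became 1 with quantile normalization again, with the dimmest 25% of probe sets left out, with a trended robust eBayes and with 1 probe set per gene, and was 0 to 2 with 1 array left out (1 without replicate B of GRα dexamethasone and 2 without replicate C of GRα vehicle). Dexamethasone against RU486 in GRα cells went from 1 to 0 with only the groups compared, and was 0 to 1 with 1 array left out. In control cells the same comparison went from 0 to 1 with array weights. Beyond the fewer arrays or fewer probe sets that some settings hold by construction, the cause was not tested. The replicate block, fitted although the letters do not pair the arrays, gave 26 called in vehicle, 22 under dexamethasone and 18 under RU486 and changed no other count.

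The share of all probe sets called by dexamethasone rests on few arrays: with 1 array left out, the 425 called in GRα cells ranged from 228 to 817, the 27 in control cells from 10 to 50, the 145 against RU486 in GRα cells from 64 to 234, the 55 in control cells from 14 to 99, and the 12 interaction calls from 3 to 17. Without GRα vehicle replicate B these were 284, 50, 234, 99 and 13.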

Other observations

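The 4 interferon and interleukin receptor genes that were lower in GRα cells, IFNAR2, IL10RB, IFNAR1 and IFNGR2, follow each other on chromosome 21 in RefSeq order. Their neighbours were looked at after these values were seen. Of the 20 nearest measured protein-coding genes, 10 on each side, 13 were lower and 2 higher in GRα cells under vehicle by limma with the Benjamini-Hochberg correction, with a median difference of −0.44 on the log2 scale. Among them were CRYZL1 (−0.80, SE 0.08), PAXBP1 (−0.72, SE 0.06) and GART (−0.60, SE 0.06), none of which belongs to the interferon pathway. Under dexamethasone and under RU486, on other arrays, 12 of the 20 were lower and 1 higher.

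Over all 196 measured protein-coding genes of chromosome 21, 84 (42.9%) were lower and 14 (7.14%) higher in vehicle. Of all probe sets, an unlike set that includes those with no symbol, 14.3% were lower and 11.9% higher. For the 196 genes the counts were 88 lower and 13 higher under dexamethasone and 82 and 13 under RU486. Of the members, MX1 and MX2 lie on the same chromosome, and MX1 was lower in vehicle (−0.35) while MX2 was not called (0.03). Other chromosomes were not counted in this way.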
